A study of Mus musculus with 8 samples.

Results

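Between the protein-coding genes of mouse chromosome 15, 1712 regions were listed as accessible chromatin after chromate treatment, of 3161 merged regions on that chromosome and 21051 in the genome. They were found by merging the lists of 3 doses wherever regions overlapped by at least 1 bp, and by keeping the chromosome 15 regions whose midpoint lay outside every protein-coding gene and more than 1 kb from a gene start or end. The data are ATAC-seq of Hepa-1c1c7, an established mouse hepatoma cell line, in which the Tn5 transposase cuts DNA that is free of nucleosomes. The groups were untreated cells (0 µM) and cells given potassium chromate, a source of hexavalent chromium, at 0.1, 0.5 or 1 µM for 72 h, with 2 libraries per group and 8 in all. The labels do not tell if paired libraries came from separate cultures. The title of the series asks about accessibility and CTCF sites in promoters of genes that respond to hexavalent chromium. Each treated dose has 1 list, which its name pairs with the untreated cells, so the 3 lists share their control, no value below has a replicate error, and no difference was tested. In the list names the 1 µM libraries carry another prefix (N503) than all the others (N502), which no label explains and which cannot be told apart from their dose. Whether a listed region was more open in treated than in untreated cells was not stated in the sources used here.

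Accessible sites far from genes are usually enhancers, insulators bound by CTCF, or starts of non-coding transcripts. Enhancers are bound by transcription factors such as AP-1 and can act on genes over long distances. Gene deserts are long stretches without protein-coding genes, and several lie on mouse chromosome 15 beside genes of the cadherin family, which code for cell adhesion proteins. Of 16 hepatocyte genes, 5, 4 and 6 held a listed region, with 1 kb allowed at either end, at 0.1, 0.5 and 1 µM (31.2%, 25% and 37.5%). Among all protein-coding genes the shares were 26.6%, 24.8% and 30.6%. Apoa2, Foxa2, Cebpb and Nr1h4 were among them in every list, and the albumin gene Alb at 1 µM only. Of 12 genes of other lineages 3, 3 and 5 held one, Ptprc and Syp in every list. No test of these counts was run.

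Sequence could be read where a region touched the start of an annotated long non-coding RNA. RefSeq (build GRCm38.p6, to which mm10 corresponds) gives 269 windows of 300 bases, from 250 before to 50 after a start, for 221 such genes between the protein-coding genes of chromosome 15. The regions touched 25 of these windows, belonging to 22 genes, and 21 regions did so. A few examples are shown, chosen after their values were seen, for the AP-1 letters or the high number of CG pairs they hold and, in the last 2, for the short CTCF letters and for a high score without any motif. The Gm41301 window is chr15:37135692-37135991 on the minus strand, 96.9 kb from the transcription factor gene Grhl2, with the opposite start of Gm34820 in the same region. That of D130051D11Rik is chr15:85634346-85634645 on the plus strand, 53.0 kb from the growth factor gene Wnt7b. Gm30663 lies at chr15:7037617-7037916, plus strand, 52.8 kb from Lifr, the receptor for leukaemia inhibitory factor. The window of Gm34618 is chr15:11964142-11964441, minus strand, 17.0 kb from Sub1, a transcriptional coactivator gene. Gm31342 starts at chr15:67039343-67039642, plus strand, 63.3 kb from the sialyltransferase gene St3gal1. Gm30057 is at chr15:3250805-3251104, plus strand, 19.6 kb from Selenop, which codes for the selenium transport protein of plasma. Each is written 5′ to 3′, and capitals mark matches to the motifs spelled out after them.
Gm41301: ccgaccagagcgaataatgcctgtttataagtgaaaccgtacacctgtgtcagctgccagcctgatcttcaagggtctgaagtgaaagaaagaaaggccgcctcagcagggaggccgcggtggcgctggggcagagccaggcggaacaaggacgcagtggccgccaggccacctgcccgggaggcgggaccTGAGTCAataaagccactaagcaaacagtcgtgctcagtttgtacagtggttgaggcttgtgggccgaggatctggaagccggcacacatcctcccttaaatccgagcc
D130051D11Rik: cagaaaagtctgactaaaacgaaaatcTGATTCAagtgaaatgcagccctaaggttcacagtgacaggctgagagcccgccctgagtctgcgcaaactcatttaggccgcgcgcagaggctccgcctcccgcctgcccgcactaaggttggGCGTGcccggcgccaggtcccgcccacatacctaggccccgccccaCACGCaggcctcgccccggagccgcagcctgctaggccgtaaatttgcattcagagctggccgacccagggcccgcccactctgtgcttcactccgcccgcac
Gm30663: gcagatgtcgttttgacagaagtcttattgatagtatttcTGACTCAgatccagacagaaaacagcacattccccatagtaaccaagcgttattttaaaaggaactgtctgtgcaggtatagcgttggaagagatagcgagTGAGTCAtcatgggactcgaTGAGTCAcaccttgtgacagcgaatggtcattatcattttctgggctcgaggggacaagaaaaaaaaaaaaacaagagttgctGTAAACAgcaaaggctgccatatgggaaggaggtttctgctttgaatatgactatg
Gm34618: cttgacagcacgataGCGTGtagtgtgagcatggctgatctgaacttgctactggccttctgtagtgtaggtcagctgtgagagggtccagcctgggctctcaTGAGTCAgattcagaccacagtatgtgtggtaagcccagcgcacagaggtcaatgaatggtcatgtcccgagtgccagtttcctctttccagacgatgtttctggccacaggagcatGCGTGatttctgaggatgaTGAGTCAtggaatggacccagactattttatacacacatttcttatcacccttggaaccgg
Gm31342: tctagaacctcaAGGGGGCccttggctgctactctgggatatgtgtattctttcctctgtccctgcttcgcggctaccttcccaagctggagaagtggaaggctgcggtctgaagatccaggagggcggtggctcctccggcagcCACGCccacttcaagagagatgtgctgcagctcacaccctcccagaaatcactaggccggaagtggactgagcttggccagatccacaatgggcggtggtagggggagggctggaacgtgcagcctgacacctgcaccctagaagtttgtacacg
Gm30057: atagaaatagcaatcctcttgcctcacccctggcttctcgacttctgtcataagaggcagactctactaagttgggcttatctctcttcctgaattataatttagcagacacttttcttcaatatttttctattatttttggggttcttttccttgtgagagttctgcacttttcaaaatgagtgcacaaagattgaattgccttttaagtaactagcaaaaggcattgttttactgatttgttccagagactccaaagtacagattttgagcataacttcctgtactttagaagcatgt

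Of the 25 windows touched, 8 (32.0%) held the AP-1 letters TGANTCA, against 10.2% of the 244 windows not touched and 7.81% of all 32851 promoter windows in the table. The 8 windows belong to 7 regions, and in 6 of these a match lay inside the listed region itself. The exception was D130051D11Rik, whose AP-1 match lay outside the region. The window of Gm30663 holds 3 AP-1 matches, 2 of them inside the region, and that of Gm34618 holds 2, with 1 inside. Both regions were listed at 1 dose only, at 0.5 µM with a score of 6 and at 1 µM with a score of 5. The Gm41301 and D130051D11Rik windows hold 16 and 23 CG pairs, and their regions were listed at every dose. The score is a whole number of at least 4 that the authors deposited per region, whose scale was not stated in the sources used here. Gm41301 scored 10, 12 and 18 at 0.1, 0.5 and 1 µM, D130051D11Rik 29, 8 and 25, and Gm31342 46, 45 and 80. Gm30057, without a match, scored 96, 10 and 121.

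Both strands were searched for 8 motifs, and the shares in touched, untouched and all windows follow. The core of the CTCF motif was in 0%, 0.410% and 0.648%. The shorter CTCF letters AGGGGGC, in Gm31342 alone, were in 4%, 6.15% and 10.6%. The letters TGTTTAC, of the liver factors of the FOXA family, were in 12.0%, 5.74% and 3.65%. GCGTG, the core bound by the aryl hydrocarbon receptor, was in 24.0%, 12.7% and 32.4%. The E-box CACGTG was in 4%, 5.74% and 7.15%. The NRF2 letters TGACNNNGC (0%, 8.20% and 12.4%), which can overlap those of AP-1, and the C/EBP letters TTGCNNCAA (0%, 5.74% and 2.08%) were in no touched window. These are matches of letters in 25 windows, some of which overlap each other, and say nothing of binding. The windows touched had a median GC content of 47.0%, against 47.3% in the others, and a median of 5 CG pairs against 3. Of the 21 regions at such starts, 13 (61.9%, 95% exact binomial interval 38.4 to 81.9) were listed at all doses, and their median width was 522 bp. The share at all doses was 24.6% over the 1712 regions, 54.7% at the protein-coding gene ends of chromosome 15 and 34.5% over all merged regions. The 1712 had a median width of 295 bp. The 21 were taken by any overlap with a window, which a wider region meets more easily. The 1712 and the regions at gene ends were placed by midpoint, so these shares are not of like sets. Intervals here and below cover counting error only.

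Chromosome 15 held 28.7 between-gene regions per Mb of between-gene sequence, against 4.65 per Mb over the other chromosomes, a ratio of 6.18. It has 3.96% of that sequence and 20.3% of the 8433 between-gene regions. The next highest density was 8.93 per Mb on chromosome 1, followed by 8.86 on chromosome 17, and the lowest 0.872 on X. In the 0.1 µM list the density was 16.2 per Mb against 3.20 elsewhere, at 0.5 µM 13.4 against 2.06, and at 1 µM 17.4 against 3.34. Inside genes and at gene ends the ratio was smaller, with 35.1 regions per Mb on chromosome 15 and 10.9 elsewhere, a ratio of 3.21. Regions between genes thus made up 54.2% of the merged regions of chromosome 15 (52.4 to 55.9) and 37.6% on the other chromosomes, where the highest share was 44.9% on chromosome 16.

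**Figure D1:**
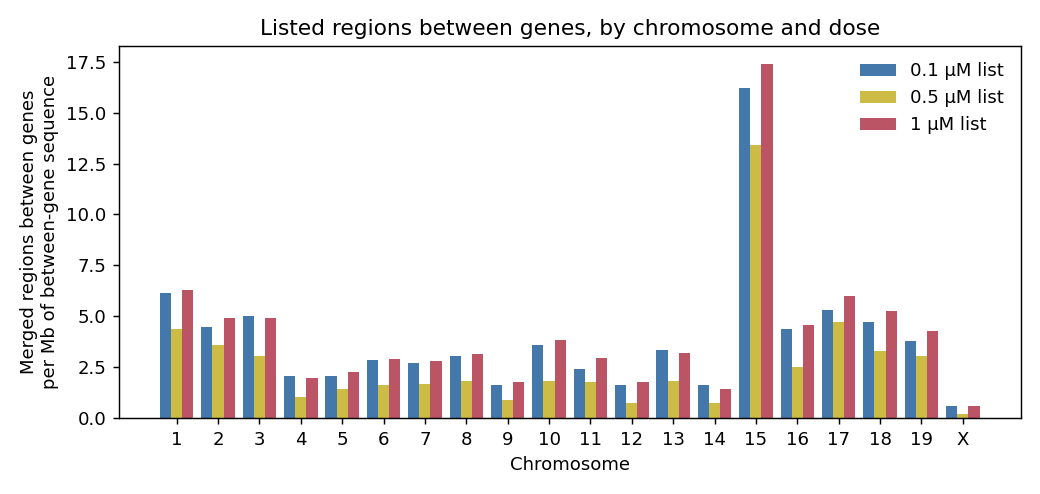
Bars give merged regions between protein-coding genes per Mb of between-gene sequence (vertical axis) for each chromosome (horizontal axis), in the 0.1 µM (blue), 0.5 µM (yellow) and 1 µM (red) lists. Chromosome 15 stands at 16.2, 13.4 and 17.4 per Mb, above every other chromosome in each list.

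The regions were unevenly spread along the chromosome. The bounds of the stretches described were chosen after their values were seen. From chr15:25000001-55000000 came 936 of them (54.7%), at 51.2 per Mb of between-gene sequence, with the densest window of 5 Mb at chr15:40000001-45000000 (210 regions, 65.4 per Mb). That window had 36.8, 29.9 and 37.7 regions per Mb at 0.1, 0.5 and 1 µM. In contrast, chr15:70000001-90000000 held 38 regions, at 3.97 per Mb, and the window at chr15:75000001-80000000 only 3. Regions inside genes and at gene ends were also few there, at 10 per Mb of gene sequence in that window against 68.2 in the densest. Towards the distal end, from chr15:90000001-103899312, the density was 25.3 per Mb.

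The density did not fall steadily with distance from genes, as it did elsewhere. On the other chromosomes it went from 7.52 regions per Mb at 1 to 5 kb from the nearest protein-coding gene to 1.55 beyond 500 kb. On chromosome 15 it was 27.7 per Mb at 1 to 5 kb, 37.5 at 50 to 100 kb and 25.3 beyond 500 kb. The ratio of the 2 rose from 3.68 at 1 to 5 kb to 16.3 beyond 500 kb. For regions at all doses it went from 3.47 to 8.40 at 250 to 500 kb and was 5.05 beyond, while for regions of a single list it went from 4.77 to 29.5. In the single lists it rose from 2.61 to 10.2 at 0.1 µM, from 4.44 to 16.2 at 0.5 µM and from 3.39 to 10 at 1 µM. The density beyond 100 kb divided by that within 25 kb was 0.943 on chromosome 15 and 0.221 to 0.679 on the 19 others, with chromosome 17 highest among these. Among regions listed at all doses, the same quotient was 0.742 on chromosome 15 and reached 0.803 on chromosome 13, so there chromosome 15 did not stand above all others. The median distance of the 1712 regions to a gene was 94.5 kb (quartiles 30.6 and 267), and 36.2 kb for between-gene regions elsewhere.

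**Figure D2:**
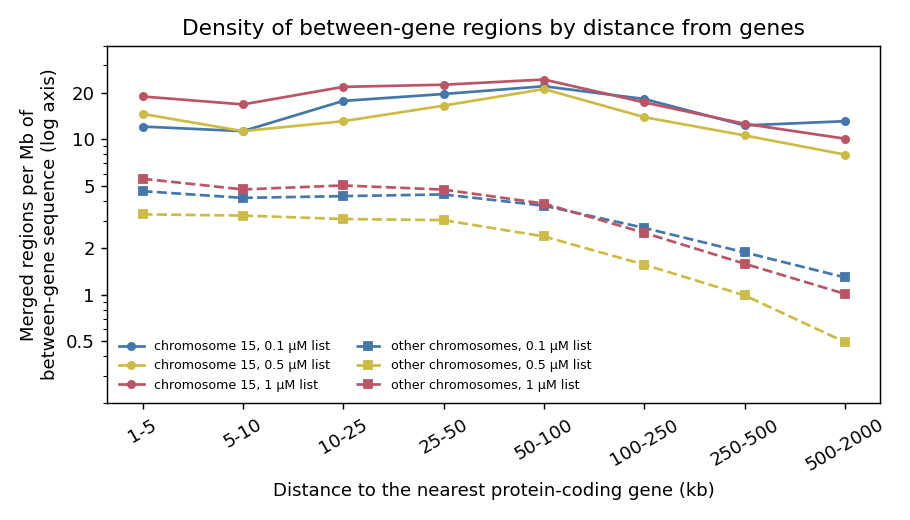
Lines give between-gene regions per Mb of between-gene sequence (vertical log axis) by distance to the nearest protein-coding gene in kb (horizontal axis), for chromosome 15 (circles, solid) and all other chromosomes (squares, dashed) in each dose list (colours). The dashed lines end far below their start, though at 0.1 and 1 µM they do not fall at every step. Those of chromosome 15 stay above 7 per Mb in every class.

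The members differed in how many lists held them. At 0.1 µM 966 of the 1712 were listed (56.4%, where 66.6% of all merged regions were), at 0.5 µM 801 (46.8%, all regions 50.8%) and at 1 µM 1037 (60.6%, all regions 74.3%). All 3 lists held 421 (24.6%, 22.6 to 26.7), below the 34.5% of all merged regions. Elsewhere between genes the share was 30.0% (28.9 to 31.1), inside genes of chromosome 15 it was 29.9% (27.2 to 32.6) and at its gene ends 54.7%. A single list held 1041 (60.8%, 58.4 to 63.1), above the 42.8% of all merged regions. Of these, 400 were in the 1 µM list, 367 in the 0.1 µM list and 274 in the 0.5 µM list. Exactly 2 lists held 250 (14.6%, 13.0 to 16.4), below the 22.6% of all merged regions. Of these 250, 144 were at 0.1 and 1 µM, 72 at 0.5 and 1 µM and 34 at 0.1 and 0.5 µM. Since the lists share the untreated libraries, these counts describe the lists and are no test of a dose.

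Regions of a single list were narrow and scored low. Their median width was 234, 232 and 246 bp for 0.1, 0.5 and 1 µM, where the narrowest had 199 bp, and their median score 6, 7 and 6. The highest score among them was 18, 15 and 20. In the whole lists the median width was 339, 324 and 353 bp. Regions at all doses had median scores of 18.0, 14.0 and 23.0. Their median width was 613 bp, but this is the width after merging, which spans the regions of every list. It is therefore larger by construction and cannot be set against the widths of single-list regions. In each list, the regions from between the genes of chromosome 15 made up 6.82%, 7.40% and 6.59% of all listed regions, but 9.84%, 9.73% and 9.42% of the weakest 25% by score, ties included. With ties these weakest sets held 3862 of 14401, 3616 of 11130 and 4205 of 15894 regions, which is more than 25%, most so at 0.5 µM. Among the 100 best ranks, ties included, they were 13 of 100, 12 of 103 and 12 of 102. In the top 10% by score they were 6.40%, 7.37% and 6.45%, close to their share of all listed regions.

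**Figure D3:**
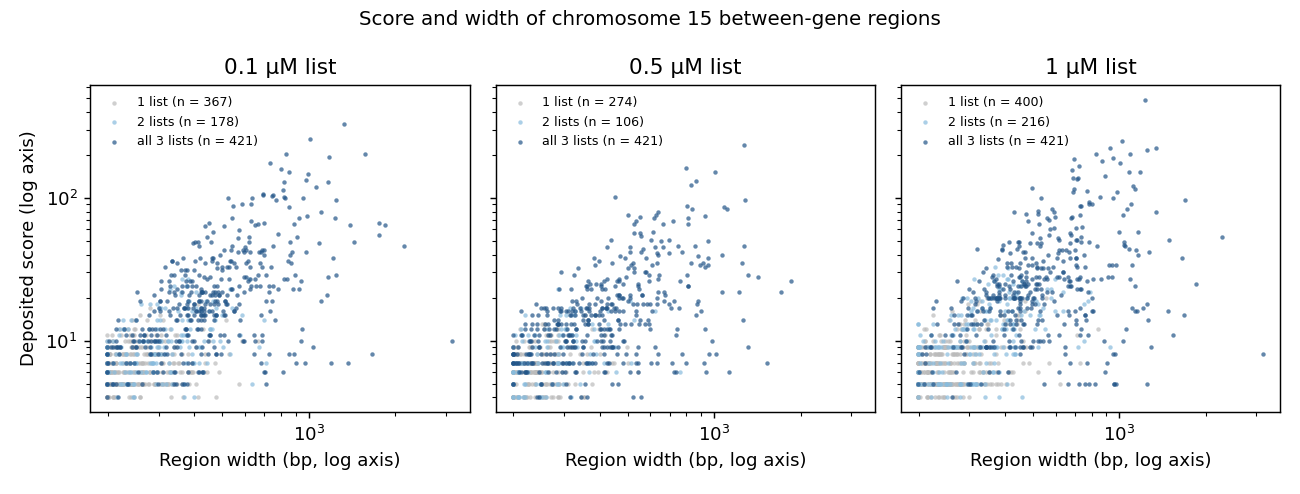
Each point is a chromosome 15 between-gene region, with its width in bp (horizontal log axis) and deposited score (vertical log axis, no stated unit), in the 0.1, 0.5 and 1 µM lists, coloured by the number of lists that hold it; where a merged region holds several of one list, the largest values are shown. Regions of 1 list (grey) stay at or below a score of 20, while those of all 3 lists reach 327, 233 and 485.

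The farthest regions were mostly in a single list. Of 257 regions more than 500 kb from a gene, 219 were in 1 list (85.2%, 80.3 to 89.3) and 22 in all 3 (8.56%, 5.44 to 12.7). At the same distance on other chromosomes, 47.1% of 314 were in 1 list and 27.7% in all 3. The single-list regions beyond 500 kb were 101 at 0.1 µM, 49 at 0.5 µM and 69 at 1 µM. The median score of the regions beyond 500 kb was 7 in each list and their median width 239 bp. At the same distance elsewhere these were 11, 11 and 12, and 324 bp. Their part in the count was not tested. The 257 lay mainly between Csmd3 and Trps1 (67), Kcnv1 and Csmd3 (65) and Cdh6 and Cdh9 (53).

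**Figure D4:**
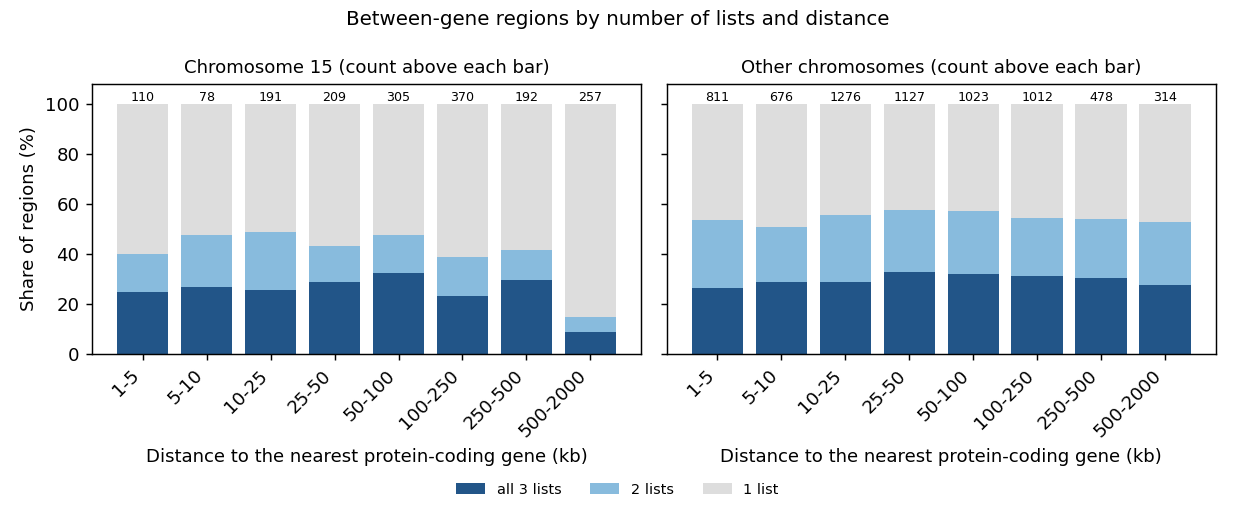
Stacked bars give the share of between-gene regions (vertical axis, %) in all 3 lists (dark blue), 2 lists (light blue) or 1 list (grey) by distance to the nearest protein-coding gene in kb (horizontal axis), for chromosome 15 and all other chromosomes. Beyond 500 kb the all-list share is 8.56% on chromosome 15 and 27.7% elsewhere.

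Most regions lay in long intervals between neighbouring protein-coding genes. Of 707 such intervals 211 held a region, and the 99 intervals of at least 100 kb held 1456 of the 1712 (85.0%). What share of the between-gene sequence these 99 hold was not computed, so this is no measure of concentration. Their median density was 29.4 regions per Mb, where all between-gene sequence of the chromosome had 28.7. The 10 intervals with the most regions held 601 (35.1%) in 17.1 Mb, which is 28.8% of the between-gene sequence of the chromosome. Between Csmd3, which codes for a large membrane protein, and Trps1, a zinc finger repressor gene, 117 regions were listed in 1862 kb (chr15:48792559-50654756), 28 of them at all doses. The counts were 61, 53 and 66 at 0.1, 0.5 and 1 µM. Between Kcnv1, a potassium channel subunit gene, and Csmd3 (chr15:45115913-47580637) there were 108 regions in 2465 kb, but only 8 at all doses. This interval was uneven over the lists, with 69, 29 and 38 regions, and 52 in the 0.1 µM list alone.

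By count, though not by density, the cadherin deserts formed the next group. Between Cdh6 and Cdh9 (chr15:13176408-16728549, 3552 kb) lay 91 regions, 22 at all doses, with 57, 41 and 44 at the 3 doses. The interval from Cdh18 to Basp1, a growth cone protein gene, held 65 and 6 at all doses, that from Cdh10 to Cdh12 42 and 5, and that from Cdh9 to Cdh10 33 and 5. Cdh6 to Cdh9 had 25.6 regions per Mb, Cdh18 to Basp1 34.5, Cdh10 to Cdh12 29.3 and Cdh9 to Cdh10 16.8. All between-gene sequence of chromosome 15 had 28.7 per Mb. Dnah5, a ciliary dynein gene, and Ctnnd2, which codes for delta-catenin, bounded 34 regions, 4 of them at all doses. A higher share was present at all doses between Trps1 and the translation factor gene Eif3h (19 of 47, 40.4%). From Ptger4, the prostaglandin receptor gene, to the endocytic adaptor gene Dab2, it was 9 of 32.

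By density among intervals of at least 100 kb, the one from Basp1 to Myo10, a myosin of filopodia, came first, with 30 regions in 209 kb (144 per Mb), 11 of them at all doses. The non-coding gene Gm48957 held 11 of the 30, of which 4 were listed at all doses. Klf10, a zinc finger gene induced by TGF-beta, and Azin1, a regulator of polyamine synthesis, bounded 20 regions in 187 kb (107 per Mb), with 12, 16 and 15 in the lists and 10 at all doses. Around Trhr, the receptor gene of thyrotropin-releasing hormone, the intervals to Nudcd1 (115 per Mb) and Tmem74 (98.2 per Mb) were dense but held only 1 of 16 and 3 of 32 at all doses. Sybu to Kcnv1 had 97.4 per Mb and 3 of 30. The median over the 99 long intervals was 29.4 per Mb (quartiles 11.9 and 49.1). In 9 of them, none was listed, among them both long intervals beside Tafa5 (1046 and 841 kb), the one between Hoxc4 and Smug1 and the one between Cyp2d34 and Cyp2d40.

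**Figure D5:**
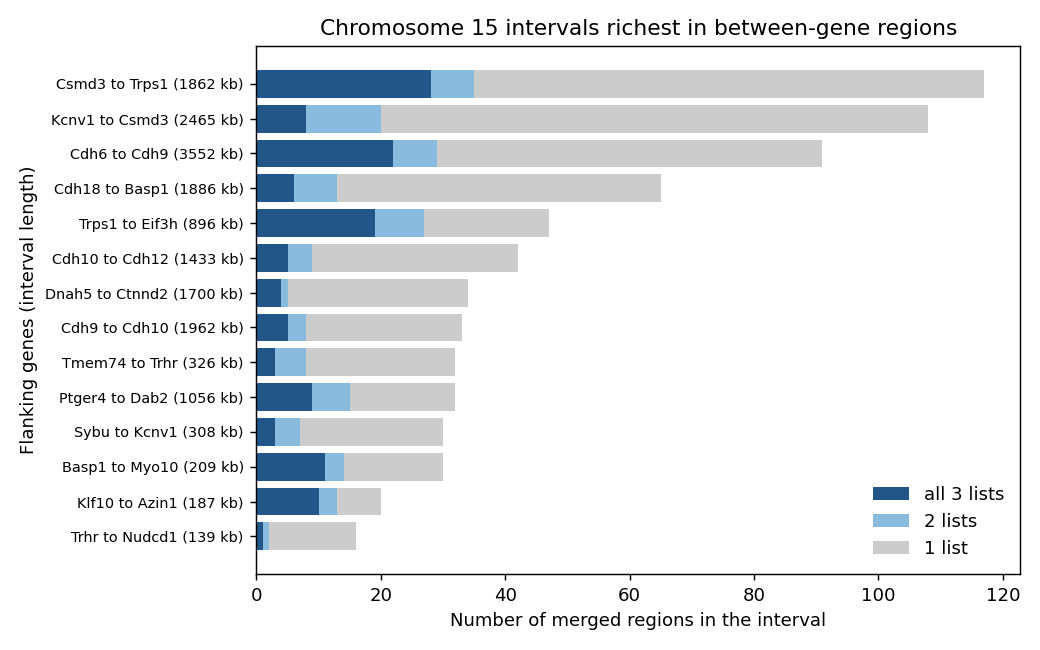
Bars give the number of between-gene regions (horizontal axis) in the 14 intervals named in the text for most regions or highest density (vertical axis, flanking genes and length in kb), split by the number of lists that hold them. Csmd3 to Trps1 has 117 regions, 28 of them in all 3 lists, and Kcnv1 to Csmd3 108 and 8.

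Nearest genes were counted in 4 lists, all chosen with earlier results of these data known. Their shares can therefore not be read as an excess over all genes. Of 774 protein-coding genes of chromosome 15, 245 (31.7%) were the nearest gene of at least 1 region, and the median was 0 regions per gene. The 14 adhesion and nerve cell genes mostly border the intervals with the most regions, so that all 14 were counted was set by the choice. They had a median of 21.0 regions per gene and 445 in all. Csmd3 had 119 (74, 35 and 48 at the 3 doses), Kcnv1 68, Cdh9 64, Cdh6 46, Cdh12 37 and Cdh10 35. The counts are not corrected for the length of the intervals beside each gene. Trhr had 27 regions and none at all doses, with scores up to 10, 10 and 12.

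Growth, cell cycle and chromatin genes had a region in 11 of 18 cases, with a median of 1.5. The oncogene Myc was nearest to 25 regions, 13 of them at all doses and 1.62 to 579 kb away, with 19, 14 and 22 at the 3 doses. Its non-coding neighbour Pvt1 contained 7, with 6, 3 and 6 at the 3 doses. Trib1, a pseudokinase gene, had 12, all of them listed at 1 µM, 7 at 0.1 µM and 6 at 0.5 µM. Eif3h had 26, and Asap1, an Arf GTPase-activating protein gene, 9. Rad21, a cohesin subunit gene, had 1, 10 kb away and listed at every dose with scores of 8, 13 and 23. Kmt2d, Atf4 and Atf1 had none.

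Liver, lipid and hormone genes had a region in 12 of 18 cases, with a median of 2. The name of this list is loose, since the 18 include Fbxo4, an F-box protein gene that is none of these, with 3 regions. The genes with the most of the list's 78 regions, named next with their functions, also fit the name only loosely. Angpt1, the ligand of the endothelial receptor Tie2, had 20, Has2, a hyaluronan synthase, 16 with 9 at all doses, and Tnfrsf11b, the gene of osteoprotegerin, 11. The growth hormone receptor gene Ghr had 5, Osmr, the oncostatin M receptor, 7, and the complement gene C9 had 1, at 2.24 kb, with scores of 31, 15 and 28. Ppara, the receptor that controls fatty acid oxidation, and Cyp2d22 had none. Transcription factor genes had one in 9 of 14 cases, with a median of 2.5, where Tbc1d31, a centrosomal protein gene first placed in that list, was left out after its values were seen (10 of 15 with it). Trps1 had 76 regions, 22 of them at all doses, Zfpm2 20, Grhl2 9, Klf10 7 and Zfat 7, while Sox10, Rarg, Hoxc6 and Hoxc10 had none.

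Among the 10 regions with the best mean rank, those beside Cdh9, Cdh6 and Kcnv1 lay in intervals already described, and the others did not. The best mean rank belonged to chr15:16403719-16405057, 324 kb from Cdh9, with scores of 327, 233 and 485, which are ranks 4, 2 and 1 of the lists. It was 1323, 1267 and 1231 bp wide at 0.1, 0.5 and 1 µM, so it was alike in all. The next, chr15:68363037-68364060, 105 kb from the zinc finger gene Zfat, scored 259, 161 and 250 (ranks 8, 12 and 18). A region 536 kb from Cdh6 (chr15:13711661-13712509) scored 204, 122 and 187, and another 60.9 kb from Cdh6 (chr15:13236813-13237782) 151, 74 and 222. Beyond Kcnv1, chr15:45179852-45181462 scored 204, 84 and 215 at 64.7 kb and chr15:45663234-45664184 160, 80 and 190 at 548 kb. Others of the best 10 were nearest to Lrrc6, which takes part in assembly of ciliary dynein arms (175, 102 and 203), to Trio (133, 130 and 175), to the adenylyl cyclase gene Adcy8 (147, 65 and 202) and to Ank, a gene of pyrophosphate transport (129, 69 and 152). In all 10, the score at 0.5 µM was the lowest of the 3. The scores of different lists have no stated common scale, and the highest score of the whole 0.5 µM list was 240, against 520 and 485.

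Wide regions did not always score high. The widest, chr15:49151517-49154720, 3204 bp and 361 kb from Csmd3, scored 10, 29 and 8, although it was 3167, 1315 and 3155 bp wide in the lists. One of 2692 bp, chr15:51591405-51594096, 194 kb from Eif3h, contains the start of the non-coding gene Gm34503 and scored 46, 22 and 25. Those of 2267 bp 192 kb from Cdh6 (67, 34 and 53), of 2027 bp 29.7 kb from Azin1 (55, 86 and 91) and of 1848 bp 65.8 kb from Myo10 (28, 26 and 58) were listed at every dose too. Among regions at 0.1 and 0.5 µM that averaged at least 1000 bp in width, 5 of 13 differed in score by over 4 times after the median difference was removed. At 0.1 and 1 µM this was so for 9 of 27, and at 0.5 and 1 µM for 5 of 20. Under 500 bp the shares were 2.05%, 2.27% and 1.68%. Scores of wide regions are therefore given as deposited and not read as differences between doses.

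The members farthest from any gene lay near the middle of the desert from Cdh6 to Cdh9. At 1771 kb from Cdh9, chr15:14957480-14957678 was listed at 0.1 µM only (score 6), and at 1740 kb chr15:14988630-14988845 at 1 µM only (score 4). At 1640 kb, chr15:15088698-15089308 was listed at 0.1 and 1 µM (9 and 12). Beside it, at 1638 kb, chr15:15089591-15090832 was listed at every dose (29, 7 and 44), and chr15:14813839-14814038, 1638 kb from Cdh6, at 0.1 µM only (score 4). Only 1 of these 5 was thus in every list.

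The best regions missing from a list had moderate ranks. At 0.1 µM alone, chr15:6056849-6057261, 243 kb from Dab2, scored 18. At 0.5 µM alone, chr15:36669713-36670066, 60.3 kb from the poly(A)-binding protein gene Pabpc1, scored 15, and at 1 µM alone chr15:5528709-5529069, 285 kb from Ptger4, scored 20. A region 38.6 kb from Cpne8, a copine gene, scored 27 at both 0.1 and 1 µM. One 10.1 kb from the keratin gene Krt18 scored 19 and 17 at 0.5 and 1 µM, and one 23.3 kb from Gxylt1 18 and 12 at 0.1 and 0.5 µM. A region missing from a list is not shown to be closed at that dose.

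Some of the 1712 regions lay in non-coding genes, which the choice of regions did not use. The midpoint of 274 (16.0%) was in one of 152 such genes, of 993 on the chromosome. Long non-coding RNAs were 139 of the 152, of 534 on the chromosome. What share of the between-gene sequence lies in non-coding genes was not computed, so the 16.0% has no background beside it. Of these 274, 88 (32.1%) were listed at all doses, against 333 of the 1438 others (23.2%). The share was 34.5% over all merged regions and 30.0% for between-gene regions on other chromosomes, so 32.1% is not high beside these. Gm48957 held 11, with 5, 6 and 10 at the 3 doses. Pvt1, 4930556M19Rik, Gm34562, Gm34678 and Gm41323 held 7 each. Gm41323 had 7 regions and none in more than 1 list, with 1, 0 and 6 at the 3 doses. Gm34678 had none at 0.5 µM, with 6 at 0.1 µM and 4 at 1 µM. 5430437J10Rik, G930009F23Rik, Gm35996 and Gm41314 held 6 each.

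At the 1 kb limit the choice was close for few regions. Just inside were regions 1004 bp from Asap1 (scores 9, 8 and 10), 1043 bp from Eny2 (24, 8 and 13) and 1114 bp from Ext1 (8, at 0.1 µM only). Just outside were those 1000 bp from Tg (7, at 0.5 µM only), 998 bp from Rgs22 (10, at 1 µM only) and 953 bp from Gm41291 (9 and 5, at 0.1 and 1 µM).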

How the data were processed

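ATAC-seq regions were analysed from 3 deposited lists, 1 per treated dose, of 8 libraries. Per the submitters' processing notes Bowtie2, Picard, MACS2 and the build mm10 were used, without version or role. In the names of the lists stand a q tag, filtered, BL and unique, unexplained in the labels. The threshold, the use of the control, the Tn5 shift, duplicate removal and pooling of libraries were not stated in the sources used here. The deposited score per region is a whole number whose scale is not given. The labels state about 75 M paired-end reads of 100 bp, in the same words for each library. The deposited files hold no read counts, so how many reads were mapped and used is unknown. Lists were merged at an overlap of 1 bp and midpoints set against 21523 protein-coding genes of a RefSeq table (GRCm38.p6), without genes placed in the first 3 Mb of a chromosome, where no region was listed. Between-gene sequence is the stretch from the first to the last gene or region, less genes with 1 kb either side. Named were the 10 regions with the best mean rank by score, the 5 widest, the 5 farthest, the best of each pattern of doses, the 3 on either side of the limit, the 10 richest and 5 densest intervals (of at least 100 kb) and the non-coding genes with most regions. The members, gene lists and rules were chosen with earlier results of these data known. Regions are not replicates, so shares have 95% exact (Clopper-Pearson) intervals and no test. Merging and placement were tested on simulated data. A motif search over whole regions had been planned, but without a genome it was left out. Alternatives changed the overlap, the genes, the distance, the midpoint and the threshold. Python 3.11.15, pandas 2.3.3 and scipy 1.17.1 were used.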

Additional observations from a re-analysis of the deposited data

How the results depend on the processing

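With 1 list per dose no library could be left out, and a value is called moved where it left its 95% interval (a count, where it changed by over 1.5 times). Of the 7 alternatives, 5 moved the share between genes and 4 the density ratio. The median distance moved in 3, and the median width (295 bp in the main setting) and the count in 2 each. The share at all doses moved in 3 and stayed in 3. With only the stronger 50% of each list by score, 617 regions remained, 47.9% of the merged regions of chromosome 15, with 35.0% at all doses, a density ratio to the other chromosomes of 4.34, a median width of 465 bp and a median distance of 72.4 kb. With the wider 50% these were 640, 46.5%, 36.9%, 5.31, 512 bp and 78.4 kb. Both settings hold fewer regions by construction, and the second wider ones. The cause of the other shifts was not tested. With every gene of the table in place of protein-coding genes, 1389 regions remained, 43.9% of those of the chromosome, the ratio was 6.67 and the distance 104 kb. With a reciprocal overlap of 50% the share between genes was 52.2% and that at all doses 19.9%, and with 2.5 kb in place of 1 kb the former was 52.4%. Without the 1 µM list, an alternative added after seeing the data, 1327 regions remained and the ratio was 5.86, while no share at all 3 doses can be given. The density ratio thus lay between 4.34 and 6.67 under these 7 alternatives. No paired analysis was possible because each dose has 1 list and the libraries have no values of their own. The labels state the same approximate number of reads for every library, but the reads mapped and used are unknown, and whether weak regions found in 1 list were missed in the others was not tested.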

Other observations

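The regions between the genes of chromosome 15 often lay close together. The median gap between neighbours was 15.7 kb (quartiles 3.94 and 42.8), and 496 gaps were at most 5 kb. With neighbours joined at that distance, 106 groups of 3 or more held 380 regions, and 888 stood alone. The largest group had 9 regions in 10.5 kb (chr15:38451655-38462147) beside Azin1, 3 of them at all doses. Groups of 7 lay near Csmd3 (chr15:49465951-49479713) and near the mucin-like gene Mucl2 (chr15:103880090-103894073), and neither held a region listed at all doses. Groups of 6 near Sub1 and near Basp1 held 2 each at all doses. The longest gap, 3564 kb (chr15:75851070-79414598), ran from the neighbourhood of Zc3h3, a zinc finger gene, to that of the casein kinase gene Csnk1e.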
